A study of Mus musculus with 3 samples.

Results

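The pluripotency factors described here are 9 genes of the 17633 with a read in at least 1 library, taken by symbol: the core factors *Pou5f1*, *Nanog* and *Sox2*, the naive factors *Zfp42*, *Esrrb* and *Klf4*, and the late epiblast factors *Utf1*, *Pou3f1* and *Sox3*. All 9 had reads in every library. RNA was taken from the endoderm, mesoderm and epiblast of ICR mouse embryos at E7.5, pooled over many embryos, and sequenced as 1 library per germ layer, so no difference below has a replicate check. The embryonic region was cut from the extra-embryonic part, digested with trypsin and pancreatin, and the layers were separated by hand. The epiblast library holds both neuroectoderm and primitive streak. The embryos carried no treatment or altered allele. Endoderm had 41.7 M reads counted on genes, mesoderm 40.8 M and epiblast 42.7 M. Levels are RPKM, the reads of a gene scaled by its length and by the counted reads of the library.

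Pluripotency is the ability of a cell to form every tissue of the embryo. POU5F1 (also known as OCT4) and SOX2 bind DNA side by side, and with NANOG they hold the core of the network in the inner cell mass and the epiblast. ZFP42 (REX1), ESRRB and KLF4 belong to the naive state before implantation, whereas UTF1, POU3F1 (OCT6) and SOX3 mark the epiblast after implantation and, for the last 2, the neural ectoderm that arises from it. *Sox2* and *Sox3* are SoxB1 genes, and *Pou5f1* and *Pou3f1* are POU genes. *Sox2* was an epiblast marker with which the study checked its dissection by qPCR.

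The promoter windows of RefSeq (GRCm38.p6, 250 bases before to 50 after a start site) were searched on both strands for the POU octamer ATGCAAAT, for the SOX sites CATTGT and CTTTGT, and for a SOX site followed by any base and the first bases of the octamer, ATGC (CATTGTNATGC or CTTTGTNATGC, which overlaps the SOX site by construction). Windows were found for 7 of the 9 genes, without *Pou3f1* and *Sox3*. Of *Pou5f1*, *Nanog* and *Esrrb* RefSeq gives 2 windows each, and the one nearest to the annotated 5′ end of the gene was used. Of the 32851 windows of all genes, 1.74% held the octamer, 28.6% a SOX site and 0.237% the combined site. *Nanog* is shown because its window was the only one of the 7 with the combined site, *Zfp42* because its window alone held the octamer, and *Pou5f1*, the most abundant of the factors, because its window held neither. Capitals mark these matches, all sequences run 5′ to 3′ along the gene, and a match is a description of letters only.

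Nanog, chr6:122707239-122707538, plus strand: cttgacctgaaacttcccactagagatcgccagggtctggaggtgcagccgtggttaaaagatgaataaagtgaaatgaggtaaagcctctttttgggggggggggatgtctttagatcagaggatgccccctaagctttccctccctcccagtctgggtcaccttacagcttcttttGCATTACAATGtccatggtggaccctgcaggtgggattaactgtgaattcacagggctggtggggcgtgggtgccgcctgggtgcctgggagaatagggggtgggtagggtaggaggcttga

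Zfp42, chr8:43306960-43307259, minus strand: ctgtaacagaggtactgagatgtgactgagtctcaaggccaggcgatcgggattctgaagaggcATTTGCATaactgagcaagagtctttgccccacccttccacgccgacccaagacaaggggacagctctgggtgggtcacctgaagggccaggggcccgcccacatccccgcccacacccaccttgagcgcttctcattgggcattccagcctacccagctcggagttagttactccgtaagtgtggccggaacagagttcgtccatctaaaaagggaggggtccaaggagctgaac

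Pou5f1, chr17:35505782-35506081, plus strand: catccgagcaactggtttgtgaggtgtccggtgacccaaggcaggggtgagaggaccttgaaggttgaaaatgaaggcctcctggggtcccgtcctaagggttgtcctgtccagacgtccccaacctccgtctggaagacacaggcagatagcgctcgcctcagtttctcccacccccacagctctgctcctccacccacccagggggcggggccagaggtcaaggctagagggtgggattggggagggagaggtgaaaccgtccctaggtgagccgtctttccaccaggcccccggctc

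With the start site at 0, the combined site of *Nanog* lay from -72 to -62 and the octamer of *Zfp42* from -186 to -179, each on the strand opposite to the gene. The windows of *Sox2* and *Esrrb* held 1 SOX site each, from -206 to -201 and from 32 to 37. Those of *Klf4* and *Utf1*, like that of *Pou5f1*, held none of these letters. A KLF site (CCACACCC or CCACGCCC), present in 8.58% of all windows, lay from -10 to -3 in *Nanog* and from -75 to -68 in *Zfp42*, and the ESRR site AAGGTCA, present in 4.72%, was in no window of the 7. Of the windows not used, that of *Pou5f1* held 1 SOX site, that of *Nanog*, which shares 224 bases with the printed one, held the same combined site, and that of *Esrrb* held no match. The 2 genes with a POU match in their window, *Nanog* and *Zfp42*, differed in their order across the layers, *Nanog* with its highest RPKM in epiblast and *Zfp42* with its lowest there.

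The libraries were checked with marker genes that hold none of the 9 factors. The 7 endoderm markers (*Apoa1*, *Ttr* and *Afp* the most abundant) summed to an RPKM of 4136 in endoderm and 51.9 in mesoderm, against 4.89 in epiblast, and *Cer1* gave 47.4 of the mesoderm value. The 7 mesoderm markers (*Hand1*, *Pdgfra* and *Mesp1*) summed to 476.4 in mesoderm, with 90.8 in epiblast and 18.8 in endoderm. The 5 epiblast markers (*Dnmt3b*, *Pim2* and *Grhl2*) summed to 902.8 in epiblast, 134.1 in endoderm and 81.4 in mesoderm, and no marker of these 3 lists was at 0 in any library. Each list was thus highest in the library of its own layer, and each library held some reads of the other layers' markers. In such bulk RNA, fewer cells of a type and less RNA per cell cannot be told apart.

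The first question is how each factor was distributed over the germ layers. The core factors all had their highest level in epiblast, but the other layers kept very different shares. *Pou5f1* (ENSMUSG00000024406.16, GRCm38 chromosome 17, 35506018 to 35510772) was counted with 2051 reads in endoderm and 6608 in mesoderm, against 29886 in epiblast, or an RPKM of 36.4 (95% exact Poisson interval 34.8 to 38.0), 119.6 (116.7 to 122.5) and 517.2 (511.4 to 523.1). It ranked 135 by RPKM among the 16430 genes listed in epiblast, 610 of 16201 in mesoderm and 2221 of 16385 in endoderm. Its mesoderm level was 23.1% and its endoderm level 7.04% of that in epiblast. Exons of the antisense gene *Gm19553* overlap *Pou5f1*, and without strand in the counting the 2 cannot be told apart. The intervals cover the counting of reads only, and reads that are PCR copies are not independent molecules.

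*Sox2* (ENSMUSG00000074637.7, chromosome 3, 34650405 to 34652461), a gene of 1 exon, had 63 reads in endoderm and 133 in mesoderm, against 4479 in epiblast. Its RPKM was 0.616 (0.473 to 0.788), 1.33 (1.11 to 1.57) and 42.7 (41.4 to 43.96). Endoderm and mesoderm were thus at 1.44% and 3.10% of epiblast, and among the core factors *Sox2* was the most strongly restricted to it. The long RNA *Sox2ot*, whose locus spans *Sox2*, had 3, 6 and 39 reads and does not share exons with it in the annotation.

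*Nanog* (ENSMUSG00000012396.12, chromosome 6, 122707489 to 122714633), a homeodomain factor, had 193 reads in endoderm and 89 in mesoderm, against 1496 in epiblast. Its RPKM was 3.42 (2.95 to 3.93), 1.61 (1.29 to 1.98) and 25.8 (24.5 to 27.2). The order of the lower layers was the reverse of that of *Pou5f1* and *Sox2*, with endoderm at 13.2% and mesoderm at 6.22% of epiblast. *Nanog* has the pseudogenes *Nanog-ps1* and *Nanog-ps2*, and uniquely mapped reads may leave out part of the reads they share.

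**Figure D1:**
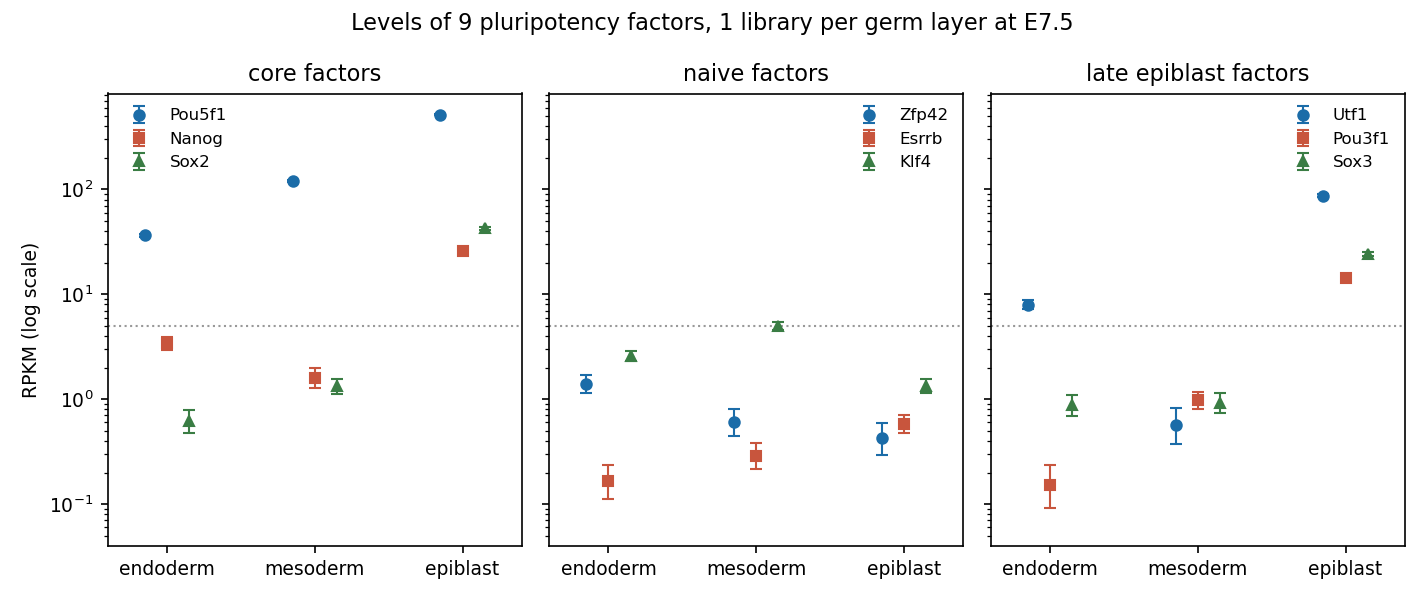
RPKM of the 9 factors on a log axis in the endoderm, mesoderm and epiblast libraries, with 95% exact Poisson intervals of the reads as bars and the RPKM of 5 used in the criteria as a dotted line. The core and late epiblast factors stand above 10 in epiblast, *Pou5f1* is above 30 in every layer, and no naive factor reaches the dotted line.

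The late epiblast factors were also highest in epiblast, and each had its own residual level elsewhere. *Utf1* (ENSMUSG00000047751.9, chromosome 7, 139943789 to 139945112), a chromatin-bound cofactor of undifferentiated cells, had 384 reads in endoderm and 27 in mesoderm, against 4304 in epiblast, or an RPKM of 7.95 (7.17 to 8.78), 0.57 (0.375 to 0.829) and 86.9 (84.3 to 89.5). After *Pou5f1* it was the most abundant of the 9 in epiblast. It was the only late epiblast factor with RPKM>5 outside epiblast, with endoderm at 9.15% and mesoderm at 0.656% of its epiblast level.

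*Pou3f1* (ENSMUSG00000090125.3, chromosome 4, 124656807 to 124660655), a gene of 1 exon, had 19 reads in endoderm and 121 in mesoderm, against 1833 in epiblast. Its RPKM was 0.151 (0.0911 to 0.236), 0.983 (0.816 to 1.17) and 14.2 (13.6 to 14.9). Endoderm stood at 1.06% of epiblast, the smallest share in endoderm among the 9 genes. Its exon overlaps the antisense gene *Gm2164*. *Sox3* (ENSMUSG00000045179.9, chromosome X, 60891366 to 60893430), also of 1 exon, had 77, 79 and 2162 reads, with an RPKM of 0.886 (0.699 to 1.11) in endoderm, 0.927 (0.734 to 1.16) in mesoderm and 24.3 (23.3 to 25.3) in epiblast. The endoderm and mesoderm levels of *Sox3* overlapped within counting error.

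The naive factors were low in all 3 libraries and had no common order. *Klf4* (ENSMUSG00000003032.8, chromosome 4, 55527143 to 55532466), a zinc finger factor that is also used in differentiated epithelia and vessels, had 329 reads in endoderm and 623 in mesoderm, against 176 in epiblast. Its RPKM was 2.58 (2.31 to 2.88), 4.99 (4.60 to 5.40) and 1.35 (1.16 to 1.56), so that it was highest in mesoderm and lowest in epiblast, with intervals that did not overlap. *Zfp42* (ENSMUSG00000051176.6, chromosome 8, 43295063 to 43306980) had 106, 45 and 33 reads and an RPKM of 1.401 (1.15 to 1.69) in endoderm, 0.607 (0.442 to 0.812) in mesoderm and 0.426 (0.293 to 0.598) in epiblast. It was highest in endoderm, and its mesoderm and epiblast intervals overlapped. It has the pseudogene *Zfp42-ps1*.

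*Esrrb* (ENSMUSG00000021255.17, chromosome 12, 86361117 to 86521628), an orphan nuclear receptor, had 30 reads in endoderm and 51 in mesoderm, against 108 in epiblast, with an RPKM of 0.167 (0.113 to 0.239), 0.29 (0.216 to 0.381) and 0.587 (0.481 to 0.709). It was the only naive factor with its highest level in epiblast, where it ranked 11894 by RPKM. Reads covered 39.2% of its length in endoderm and 57.4% in mesoderm, against 77.8% in epiblast. Summed, the 3 naive factors had an RPKM of 4.15 in endoderm and 5.89 in mesoderm, against 2.36 in epiblast, against 585.8 for the core factors and 125.4 for the late epiblast factors in epiblast.

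The next question is which of these differences met the criteria of the study, RPKM>5 in at least 1 library of a pair, Fold Change>2 and FDR<0.001, where the FDR is the Benjamini-Hochberg adjusted p, over all genes tested, of Audic and Claverie's two-sided exact test. That test compares 2 libraries and not the germ layers, since it holds only counting noise. Between mesoderm and epiblast, 6 of the 9 factors were differentially expressed, all of them higher in epiblast. *Pou5f1* alone of the 6 had RPKM>5 in mesoderm, so the RPKM filter allowed the others only the direction of higher in epiblast. The 6 were the core and the late epiblast factors. In edgeR's exact test, given an assumed coefficient of variation of 0.4, 3 of them were called (*Sox2*, *Utf1* and *Sox3*). Of all 17100 genes tested in this pair, 5.04% were called, 2.45% as higher in epiblast, and of the 8340 genes with RPKM>5 in the pair 5.02% were called as higher in epiblast. The median log2 ratio of epiblast to mesoderm was 3.86 over the 9 factors and -0.01 over all genes with reads in both libraries.

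*Utf1* differed most in this pair, 152.5-fold (95% exact counting interval 104.7 to 231.7), and its log2 ratio ranked 2 among the genes with RPKM>5. *Sox2* was 32.2-fold higher in epiblast (27.1 to 38.6), *Sox3* 26.2-fold (20.9 to 33.2), *Nanog* 16.1-fold (13.0 to 20.1), *Pou3f1* 14.5-fold (12.1 to 17.6) and *Pou5f1* 4.33-fold (4.21 to 4.44). The most abundant factor thus had the smallest fold of the 6. *Klf4* was 3.70-fold higher in mesoderm (3.13 to 4.40) (exact test on the reads of those 2 libraries, FDR 7.99e-63) and missed the criteria because its RPKM of 4.99 lay just under 5. *Esrrb* was 2.03-fold higher in epiblast (1.44 to 2.88) and *Zfp42* 1.43-fold higher in mesoderm (0.89 to 2.31), and neither reached RPKM>5 in any library.

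Between endoderm and epiblast the same 6 factors were differentially expressed, again all higher in epiblast. Both comparisons use the 1 epiblast library and are not independent. Of the 6, *Pou5f1* and *Utf1* alone had RPKM>5 in endoderm, so the others could be called only as higher in epiblast. At the same assumed coefficient of 0.4, *Sox2*, *Pou3f1* and *Sox3* were called. Of the 17267 genes tested, 12.6% were called and 4.58% were called as higher in epiblast, which was 8.94% of the 8843 genes with RPKM>5 in the pair. The median log2 ratio of epiblast to endoderm was 3.45 over the 9 factors and 0.10 over all genes. In all, 206 genes met the criteria as higher in epiblast than in both other layers, and 6 of them were these factors.

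Here *Pou3f1* had the largest fold, 94.1 (60.1 to 156.7), followed by *Sox2* with 69.3 (54.1 to 90.4) and *Sox3* with 27.4 (21.8 to 34.8). *Pou5f1* was higher by 14.2-fold (13.6 to 14.9), *Utf1* by 10.9-fold (9.85 to 12.2) and *Nanog* by 7.56-fold (6.50 to 8.83). *Utf1* and *Nanog* thus stood nearer to epiblast in endoderm than in mesoderm, whereas *Pou5f1*, *Sox2* and *Pou3f1* stood nearer to it in mesoderm. Of the naive factors, *Esrrb* was 3.51-fold higher in epiblast (2.32 to 5.45), while *Zfp42* was 3.29-fold (2.21 to 5.03) and *Klf4* 1.92-fold (1.59 to 2.31) higher in endoderm. None of these 3 reached RPKM>5 in the pair.

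**Figure D2:**
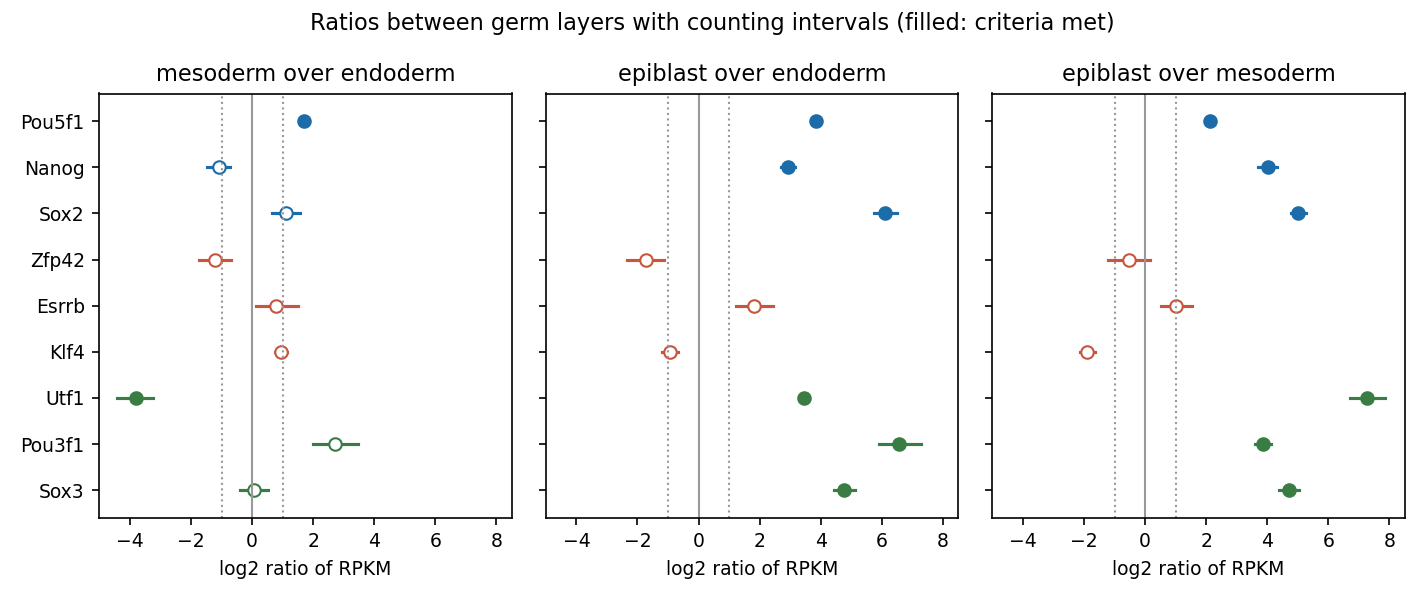
The log2 ratio of RPKM of each factor in the 3 pairs of germ layers, with 95% exact counting intervals as bars, dotted lines at a fold of 2 and filled points where the criteria were met. The 6 core and late epiblast factors lie to the right in both comparisons with epiblast, and between endoderm and mesoderm *Pou5f1* and *Utf1* are the filled points, in opposite directions.

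Between endoderm and mesoderm, 2 of the 9 factors were differentially expressed, in opposite directions. In this pair 11.9% of the 17194 genes tested were called, 4.41% as higher in mesoderm and 7.44% as higher in endoderm. The 2 factors called were the only ones of the 9 with RPKM>5 in this pair, where 23.0% of the genes above that level were called. *Pou5f1* was 3.29-fold higher in mesoderm (3.13 to 3.45), and *Utf1* was 13.9-fold higher in endoderm (9.44 to 21.4). At the assumed coefficient of 0.4 neither was called. *Utf1* had an FDR of 6.30e-80 in the exact test on the reads of those 2 libraries. Its RPKM was over 5 in endoderm but not in mesoderm, so it could be called only as higher in endoderm. The median log2 ratio of mesoderm to endoderm was 0.79 over the 9 factors and 0.11 over all genes.

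The other 7 factors did not reach RPKM>5 in this pair, and their folds are given as values. *Pou3f1* was 6.49-fold (3.98 to 11.2), *Sox2* 2.15-fold (1.58 to 2.95), *Klf4* 1.93-fold (1.69 to 2.21) and *Esrrb* 1.73-fold (1.08 to 2.82) higher in mesoderm. *Zfp42* was 2.31-fold (1.62 to 3.35) and *Nanog* 2.13-fold (1.65 to 2.77) higher in endoderm. *Sox3* differed by 1.05-fold (0.755 to 1.45), for which the exact test on the reads gave an FDR of 0.874, and its direction turned when the libraries were scaled by TMM or by the median of ratios.

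Markers of other cell types are given beside these residual levels. Of the 5 epiblast markers, 3 met the criteria as higher in endoderm than in mesoderm and none the other way. At the assumed coefficient of 0.4 none of the 5 was called in this pair. *Pim2*, a kinase gene, had an RPKM of 9.84 in endoderm and 3.86 in mesoderm, against 239.4 in epiblast, and *Grhl2*, an epithelial transcription factor gene, had 5.96, 0.935 and 7.54. *Utf1* and *Nanog* shared this order of the layers. *Dnmt3b*, which encodes a de novo DNA methyltransferase, had an RPKM of 111.6 in endoderm and 74.3 in mesoderm, or 648.6 in epiblast. The epiblast markers *Fgf5* and *Foxd3* did not share that order. *Fgf5* was highest in endoderm (6.64, 2.19 and 6.32) and *Foxd3* was lowest there (0.0506, 0.103 and 0.868). The 5 primitive streak markers (*T*, *Mixl1* and *Eomes* the most abundant) summed to an RPKM of 111.6 in endoderm and 100.02 in mesoderm, against 277.5 in epiblast, none at 0 in any library. *T* gave 93.7, 74.8 and 228.5 of these sums, and *Nodal* was highest in endoderm, with 4.73, 0.152 and 2.20. The 5 neural plate markers (*Zic2*, *Hesx1* and *Six3*, with *Zic2* also among the late epiblast companions below) summed to 30.2, 37.6 and 76.3, and 4 of the 5 were highest in epiblast, *Hesx1* in endoderm. *Zic2* alone gave 10.4, 35.7 and 59.0 of these sums. The part of the cell types of these markers in the levels of the 9 factors was not tested.

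Some of the factors are also used outside the epiblast, *Sox2* and *Esrrb* in extra-embryonic ectoderm and *Pou5f1*, *Nanog* and *Sox2* in primordial germ cells. Of the 9 markers of extra-embryonic ectoderm and trophoblast (*Cdx2*, *Bmp4* and *Plac1* the most abundant), 6 had reads, and the list summed to an RPKM of 46.9 in endoderm and 62.1 in mesoderm, against 42.4 in epiblast. *Tpbpa*, *Prl3d1* and *Prl2c2* were at 0 in every library, and *Elf5*, named after its values were seen, had 10, 12 and 31 reads. *Cdx2* and *Bmp4* are also expressed in the embryo proper at this stage. The 6 germ cell markers (*Prdm1*, *Dnd1* and *Tfap2c*) summed to 9.92, 7.002 and 13.9. *Prdm1* was highest in endoderm, where it gave 7.61 of the sum, and the other 5 were highest in epiblast. Of these, *Nanos3* was at 0 in endoderm and mesoderm and had 6 reads in epiblast, and *Dppa3* had 3, 6 and 10 reads, both named here after their values were seen. The part of either cell type in the levels of the 9 factors was not tested.

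Since the factors act together, their proportions within a library were compared, as ratios of RPKM, which are free of the scaling between libraries. There were 12.1 units of *Pou5f1* RPKM per unit of *Sox2* in epiblast (95% exact counting interval 11.7 to 12.5), 59.1 in endoderm (46.0 to 77.2) and 90.2 in mesoderm (76.0 to 107.9). RNA of *Pou5f1* and *Sox2* was thus counted in all libraries, but outside the epiblast the ratio shifted towards *Pou5f1* by more than counting error. Whether reads outside epiblast came from that layer's own cells, or both RNAs from the same cells, was not tested. Against *Nanog*, the ratio of *Pou5f1* was 20.02 in epiblast (19.0 to 21.1), 10.7 in endoderm (9.19 to 12.4) and 74.4 in mesoderm (60.4 to 92.8).

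*Pou5f1* over *Utf1* was 5.95 in epiblast (5.77 to 6.15) and 4.58 in endoderm (4.10 to 5.12), while in mesoderm, where *Utf1* had 27 reads, it reached 209.8 (144.1 to 318.6). *Nanog* was below *Sox2* in epiblast, with a ratio of 0.605 (0.570 to 0.642), and above it in endoderm, with 5.55 (4.16 to 7.50). In mesoderm the ratio was 1.21 and its interval of 0.916 to 1.60 included 1. The SoxB1 pair moved less: *Sox2* over *Sox3* was 1.76 in epiblast (1.67 to 1.85), 1.43 in mesoderm (1.07 to 1.91) and 0.695 in endoderm (0.49 to 0.982). *Klf4* over *Esrrb* was 15.5 in endoderm (10.6 to 23.3), 17.2 in mesoderm (12.9 to 23.4) and 2.30 in epiblast (1.80 to 2.95).

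**Figure D3:**
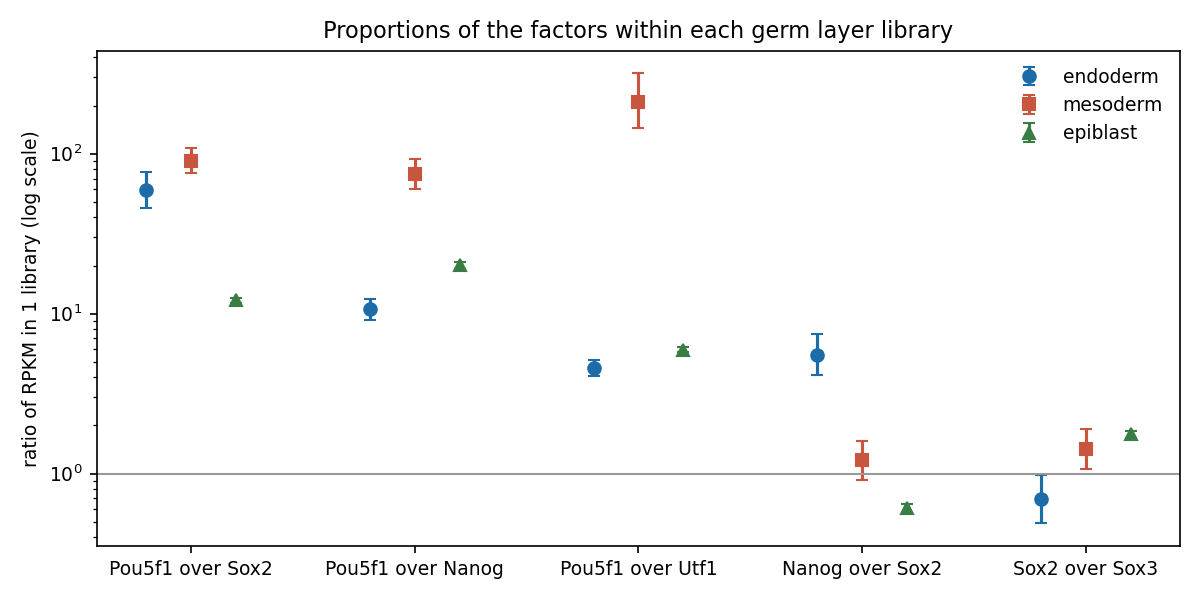
Ratios of RPKM between 2 factors within each germ layer library on a log axis, with 95% exact counting intervals as bars and a line at 1. *Pou5f1* over *Sox2* is lowest in epiblast, at 12.1, *Pou5f1* over *Utf1* in mesoderm stands apart at 209.8, and *Nanog* over *Sox2* crosses 1 between endoderm and epiblast.

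Companion genes of each role were listed to place the factors in their network. Of 11 late epiblast companions, 7 were higher in epiblast than in mesoderm by the criteria and 8 were higher than in endoderm, and none was lower in either pair. Their median log2 ratio was 1.53 over mesoderm and 1.78 over endoderm, against -0.01 and 0.10 over all genes. At the assumed coefficient of 0.4 these counts fell to 1 and 1. All 5 epiblast markers above are in this list. *Dnmt3b* was 8.72-fold higher in epiblast than in mesoderm and 5.81-fold higher than in endoderm, and *Pim2* 62.0-fold and 24.3-fold. *Tead2*, a transcription factor gene of the Hippo pathway, was called against endoderm alone, with an RPKM of 80.9 in endoderm and 231.8 in mesoderm, against 190.2 in epiblast. The neural regulator *Zic2*, with 10.4, 35.7 and 59.0, was also called against endoderm alone.

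The core companions showed smaller median differences. Of 13 genes, 1 was called as higher in epiblast than in mesoderm and 3 as higher than in endoderm, and none as lower, with median log2 ratios of 0.27 and 0.40. *Tcf7l1*, a repressor of naive genes, had an RPKM of 26.6 in endoderm and 76.2 in mesoderm, against 73.4 in epiblast. *Lin28b*, an inhibitor of let-7 processing, had 5.81, 19.9 and 26.6, and *Tdgf1*, a co-receptor of Nodal, had 2.33, 10.3 and 8.23. *L1td1*, an RNA-binding protein gene of pluripotent cells, had 39.2 in endoderm and 6.30 in mesoderm, against 51.8 in epiblast. Relative to mesoderm, *L1td1* was 8.23-fold higher in epiblast and 6.22-fold in endoderm, the order of layers seen for *Utf1* and *Nanog*. The other 9 core companions met the criteria in no pair. Of these, *Fgf4* was 28.7-fold higher in epiblast and 11.1-fold higher in mesoderm than in endoderm, but its highest RPKM was 4.32. *Dppa2* was 15.9-fold higher in endoderm than in epiblast, with an RPKM of 0.767 in endoderm. At the assumed coefficient of 0.4 none of the 13 core companions was called in any pair.

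The naive companions differed in direction between the pairs. Of 12 genes, 11 had reads and 4 met the criteria in some pair, the only 4 with RPKM>5 in any library, a level that *Tfcp2l1* passed through endoderm alone. These 4 were called as higher in endoderm than in mesoderm. *Tfcp2l1*, a transcription factor of the naive state, had an RPKM of 11.6 in endoderm and 0.108 in mesoderm, against 0.277 in epiblast. *Tdh*, the gene of threonine dehydrogenase, had 112.3, 0.309 and 9.63, and *Tbx3*, also a regulator in endoderm and mesoderm, had 37.1, 16.8 and 3.62. These 3 genes met the criteria as higher in endoderm than in epiblast, with folds of 41.9, 11.7 and 10.3. *Klf5* had 5.82 in endoderm and 2.27 in mesoderm, against 5.18 in epiblast. Against mesoderm, *Tdh* and *Klf5* were higher in epiblast by the criteria, at 31.1-fold and 2.28-fold, and *Tbx3* was lower. Over the 11 companions with reads, the median log2 ratio was -0.17 for epiblast to endoderm and 1.19 for epiblast to mesoderm, against 0.10 and -0.01 over all genes, with *Nr0b1*, at 0 in endoderm, set to 3 reads. Of these 11 companions, 5 were highest in endoderm, 2 in mesoderm and 4 in epiblast. Among the 3 naive factors themselves, *Zfp42* shared the highest level in endoderm with *Tfcp2l1*, *Tdh*, *Tbx3*, *Klf2* and *Klf5*. The endoderm level of *Klf5* was 1.12-fold that in epiblast and was not called.

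**Figure D4:**
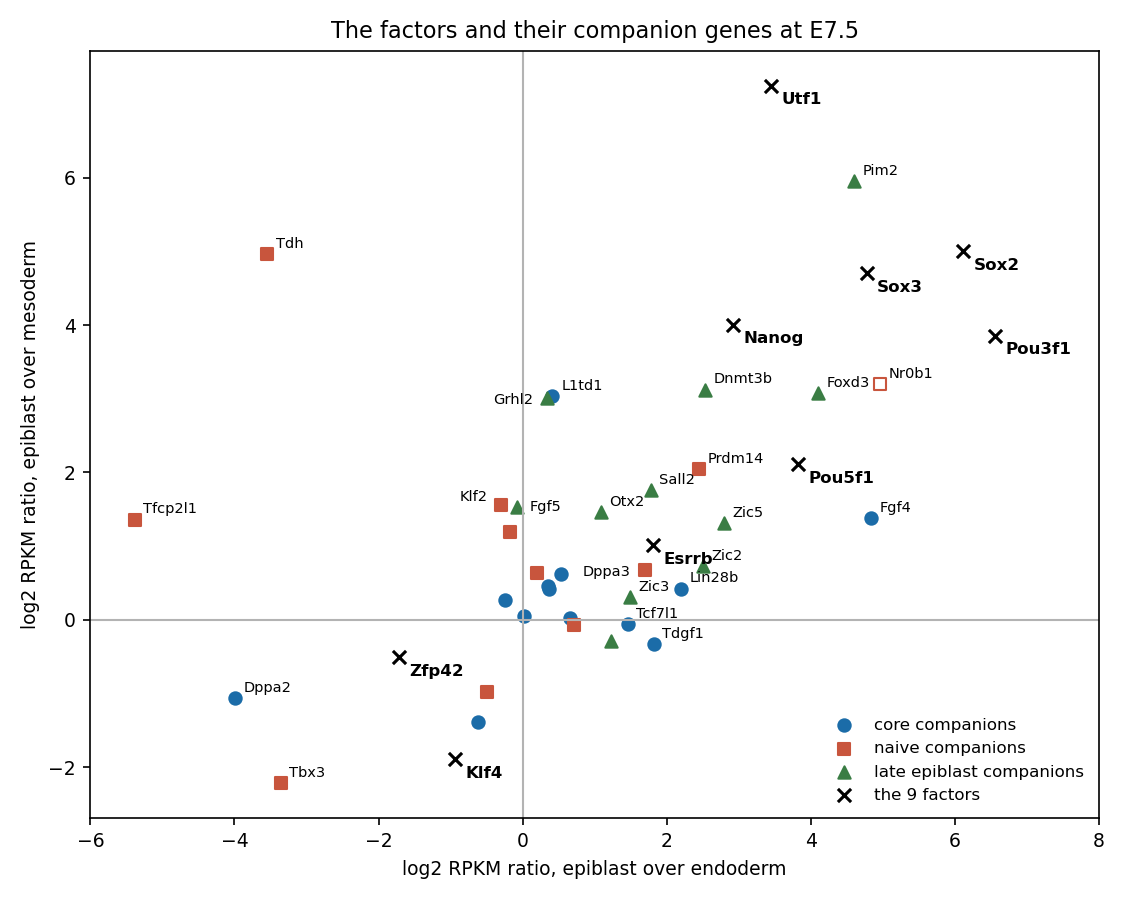
The log2 ratio of RPKM of epiblast over endoderm (x axis) and of epiblast over mesoderm (y axis) for the 9 factors as crosses and their core, naive and late epiblast companions as circles, squares and triangles, with the square of *Nr0b1* open because its endoderm count of 0 was set to 3 reads. Both axes share the epiblast library. The 6 core and late epiblast factors lie in the upper right, all late epiblast companions but *Fgf5* to the right of 0 on the x axis, and *Tfcp2l1*, *Tdh* and *Tbx3* to the left.

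The nearest relatives of the factors were mostly low. *Sox1*, the remaining SoxB1 gene, had 4 reads in endoderm and 8 in mesoderm, against 442 in epiblast, an RPKM of 2.56 in epiblast, and *Sox2* was 16.6-fold above it there (15.1 to 18.4). The SoxB2 gene *Sox14* had 0, 4 and 42 reads, and *Sox21* had 406, 33 and 129 with its highest RPKM of 2.57 in endoderm. *Sox1* and *Sox14* shared with *Sox2* and *Sox3* the highest level in epiblast, and *Sox21* did not.

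Among the POU genes, *Pou2f1* (OCT1), which is widely expressed, had an RPKM of 4.39 in endoderm and 6.18 in mesoderm, against 6.34 in epiblast, and *Pou5f1* alone exceeded it in every layer. The relatives of *Pou3f1* had few reads: *Pou3f2* had 2 in endoderm and 20 in mesoderm, against 90 in epiblast, *Pou3f3* had 23, 59 and 44, and *Pou3f4* had 6, 8 and 15. *Esrra*, a relative of *Esrrb* with a role in energy metabolism, had an RPKM of 16.3 in endoderm and 3.46 in mesoderm, against 3.18 in epiblast and met the criteria as higher in endoderm in both pairs. *Esrrg* had 0.447, 0.328 and 0.179, the reverse of the order of *Esrrb*. *Klf2* had 0.635, 0.175 and 0.516, with its lowest level in mesoderm, where *Klf4* had its highest. At the assumed coefficient of 0.4 none of the listed relatives, *Esrra* included, was called in any pair.

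The genes most like each core and late epiblast factor were found by the Euclidean distance between profiles. Each profile was the RPKM in the 3 libraries as percent of their sum, and 9129 genes with RPKM>5 in any library were compared. The naive factors, none of which reached that level, were left out. With 3 libraries such a likeness is a description only. *Pou5f1*, with 5.41% of its sum in endoderm and 17.8% in mesoderm, against 76.8% in epiblast, was nearest to *C530028O21Rik* at 0.782 percentage points, *Lrmp* at 1.31 and *Slmo1* at 1.62. *Nanog* was nearest to *Tmem54* (3.60), *Dtx3l* (4.43) and *Usp44* (4.84). *Sox2* was nearest to *Cxcl12* (1.08), *2900011O08Rik* (1.99) and *Jph4* (2.02). *Pou3f1* was nearest to *Tfap2a* (2.06), *Apba2* (2.30) and *2900011O08Rik* (2.61), and *Sox3* to *2410007B07Rik* (0.155), *Slc7a3* (1.63) and *Dlx5* (1.80). *Utf1* had no gene within 5 percentage points, and its nearest were *Dtx1* (5.21), *Pim2* (5.74) and *2410007B07Rik* (6.14). For the other 5 core and late epiblast factors, between 3 and 12 genes lay within that distance.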

How the data were processed

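Paired-end sequencing gave 1 RNA library for each of the 3 germ layers of E7.5 embryos. The authors deposited, for each gene with a read, its RPKM, its count of uniquely mapped reads, its length and the percent of that length that reads covered. The aligner, annotation and counting program of the gene table are not given in the sources used here. The deposited RPKM values were used as they stand, and genes missing from a library's list count as 0 reads there, for which up to 3 are allowed.

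The members and lists were chosen with earlier results of these data known. Differential expression followed the study's criteria across all genes with a read in either library of a pair (a fold over 2, RPKM over 5 in either library and an FDR under 0.001), with the exact test of Audic and Claverie and Benjamini-Hochberg adjustment. Dispersion cannot be estimated without replicates, and edgeR entered only as an alternative, its exact test taking an assumed biological coefficient of variation. The calling step was tested on simulated data, which says nothing of the spread between embryos. Intervals are 95% exact (Poisson for levels, Clopper-Pearson for ratios) and cover counting error only. Named genes were the 9 factors, the 3 genes nearest in profile to each core and late epiblast factor, and every listed relative. Up to 4 called genes of each companion list and up to 3 of each marker list were named by highest RPKM. Exceptions such as *Fgf4*, *Dppa2*, *Fgf5*, *Foxd3* and *Nodal* were named after their values were seen. *Foxf1* was matched as *Foxf1a*. Gene positions came from GENCODE M21 (GRCm38), and exons of antisense genes overlap *Pou5f1* (*Gm19553*) and *Pou3f1* (*Gm2164*), for which the use of strand in counting is not stated. The software was edgeR 4.0.16 in R 4.3.3, and Python 3.11.15 with SciPy 1.17.1, numpy 2.4.6, pandas 2.3.3 and matplotlib 3.10.9. The study's methods name TopHat and mm10 for the splicing analysis, and the submitters' processing notes list both, and mm9, without a role. The microarray, qPCR and splicing data were not analysed here.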

Additional observations from a re-analysis of the deposited data

How the results depend on the processing

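With 1 library per germ layer no replicate could be left out, and the data cannot give the spread between embryos. No paired analysis was possible because each germ layer has 1 library and the labels give no replicate numbers. The 3 counts of called factors (2 for endoderm against mesoderm, 6 for epiblast against endoderm and 6 for epiblast against mesoderm) stayed within 1.5 times in 29 of 36 pairings of a count with an alternative. At a coefficient of variation set to 0.4 in edgeR's exact test, 0, 3 and 3 factors were called (*Sox2*, *Pou3f1* and *Sox3* against endoderm, *Sox2*, *Utf1* and *Sox3* against mesoderm), and at 0.2 the counts were as reported. The count between endoderm and mesoderm was 5 with RPKM>1, 6 with no RPKM filter, 1 with RPKM>10 and 1 with Fold Change>4. Against epiblast, RPKM>1 gave 7 factors in each pair and no RPKM filter 8. *Klf4* was called between mesoderm and epiblast with RPKM>1, with no RPKM filter and after scaling to the same RPKM total. *Sox3* between endoderm and mesoderm turned from a log2 ratio of mesoderm to endoderm of 0.07 to -0.0477 after scaling by TMM and -0.0485 by the median of ratios. The median of ratios moved the log2 ratio of epiblast to endoderm by -0.11, and the same upper quartile moved it by 0.13. Over all genes, in the order above, 2038, 2176 and 861 genes were called as reported, 3375, 3561 and 1841 with RPKM>1, 4676, 4854 and 2769 with no RPKM filter, 1426, 1546 and 525 with RPKM>10, 936, 898 and 334 with Fold Change>4, 1199, 1235 and 443 at a coefficient of 0.2, and 387, 331 and 60 at 0.4. The changes with RPKM or Fold Change follow from the looser or stricter criterion. The alternative with edgeR changes the test and the spread together, and the cause of its changes and of those with the scalings was not tested. Of the 144 counts of called companions and relatives under alternatives, 41 moved by over 1.5 times. In the same order of pairs, the late epiblast companions called went from 7, 8 and 7 to 2, 5 and 4 at a coefficient of 0.2 and to 0, 1 and 1 at 0.4, the core companions from 4, 3 and 1 to 3, 2 and 1 and to 0 in each, and the naive companions from 4, 3 and 3 to 2, 3 and 2 and to 2, 1 and 1.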

Other observations

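The deposited coverage adds a further view of the factors. *Pou3f1* had 1833 reads and an RPKM of 14.2 in epiblast, but reads covered 75.9% of its length. Of the 4114 genes with an RPKM from 5 to 20 in epiblast, the median coverage was 96.7% and the 10th percentile 86.7%. *Sox3*, also of 1 exon, was covered over 87.3% at an RPKM of 24.3, where genes from 20 to 100 had a median of 98.1% and a 10th percentile of 90.4%. *Sox2*, the remaining gene of 1 exon, was covered over 96.9%, and *Utf1* over 97.8%. For genes covered in part, RPKM divides by a length that includes the part without reads. Why these parts had no reads was not tested.

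In mesoderm, 27 reads of *Utf1* covered 72.1% of its 1160 bases, and in endoderm 63 reads of *Sox2* covered 80.3% of its 2457 bases. The 19 reads of *Pou3f1* in endoderm covered 27.05% of its 3013 bases, the lowest coverage of the 9 factors in any library.

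The naive factors were covered over part of their length in every library, with the lowest value for *Esrrb* in endoderm (39.2%), and *Zfp42* was covered over 80.6% in endoderm and 69.6% in mesoderm, against 71.8% in epiblast. At an RPKM of 0.1 to 0.5, the range of *Esrrb* in endoderm and *Zfp42* in epiblast, the median coverage of genes was 45.7% in endoderm and 48.5% in epiblast. At 0.5 to 1, the range of *Zfp42* in mesoderm, the median was 74.0% in mesoderm. At 1 to 5, the range of *Zfp42* in endoderm, it was 92.05% in endoderm. *Klf4* lay in that last range in every library. It was covered over 82.1% in endoderm, 88.0% in mesoderm and 81.9% in epiblast, against medians of 92.05%, 91.65% and 92.56%.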
